A study of Mus musculus with 16 samples.

Results

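Phosphatidylcholine (PC) and phosphatidylethanolamine (PE), the main phospholipids of cell membranes, are made by a small set of enzymes, and the mRNA of 10 genes for these enzymes was followed here. The rule that chose the genes used no measured value, though the list was drawn up with earlier results of these data known. It names them as enzymes of the Kennedy pathway (Chka, Chkb, Etnk1, Pcyt1a, Pcyt2, Cept1, Chpt1), of PE methylation (Pemt), of phosphatidylserine (PS) decarboxylation (Pisd) and of PS synthesis (Ptdss1). All 10 were among the 40840 genes counted and among the 20444 genes with at least 10 counts in total, which were tested. RNA came from a mouse line labelled p53-/-; Myc hepatoblasts (liver progenitor cells), used as a culture model of hepatocellular carcinoma. In this line the tumor suppressor p53 is knocked out and the Myc oncogene is overexpressed. Sorafenib (8.5 µM), a multikinase inhibitor given in advanced liver cancer, was compared with its vehicle DMSO after 48 hours and after 7 days, which makes 4 groups of 4 replicates. All 16 libraries came from this 1 line and shared its genotype, so no library stood for cells with p53 or without added Myc. The labels number the replicates but do not say whether they were separate cultures, so the p-values measure the spread between these samples, which may be technical.

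The values are normalized counts, the reads counted on a gene after scaling for the library total and composition, given as mean ± SD over 4 libraries. Library totals ranged from 16586254 to 30828427 counts. The counts gave no check of the knockout, since Trp53 was counted in every group, with means from 1843 to 3690 normalized counts, and which exons the allele lacks is not given in the sources used here. Myc had group means from 8974 to 14822. Of 8 liver markers, Hnf4a had no count in any library, Alb had a group mean of at most 0.449 and Afp of at most 9.45. These low counts do not bear out the label of hepatoblasts, and the identity of the line was not tested. The epithelial keratin Krt19 fell with sorafenib, with group means of 2626 and 1537 at 48 hours and of 1457 and 1016 at 7 days. Krt8, Krt18 and Epcam also had lower means with sorafenib, whereas Sox9 rose from 213 to 664 at 48 hours and from 350 to 904 at 7 days. The summed level of the 8 at 48 hours was 3196 to 3437 with DMSO and 2376 to 2593 with sorafenib. At 7 days it was 2274 to 2352 with DMSO and 2101 to 2230 with sorafenib. Of 7 markers of other cells, those of leukocytes and endothelium (Ptprc, Adgre1, Pecam1, Cdh5) had group means under 5, whereas the stromal genes Col1a1 and Acta2 were abundant and higher with sorafenib. Pdgfrb, the remaining stromal gene, was lower with sorafenib, with group means of 1668 and 977 normalized counts at 48 hours and of 718 and 469.8 at 7 days. The summed level of these 7 markers was 46554 to 49680 with DMSO and 133163 to 154442 with sorafenib at 48 hours, and 66052 to 67858 with DMSO and 114355 to 119435 with sorafenib at 7 days. The part of this shift in the results on the 10 genes was not tested, and in bulk RNA fewer cells of a type and less RNA per cell cannot be told apart. Replicate 2 of sorafenib for 48 hours stood apart in its counts by chromosome. Set against the other replicates of its group, its counts of genes on chromosomes 15 to 19 and X were 0.604 times those expected from lower-numbered chromosomes, a log2 difference of -0.7274. In the other 15 libraries this log2 difference was between -0.0041 and 0.0686. The highest were the other sorafenib libraries at 48 hours, whose reference included replicate 2. Chka, Chkb and Pcyt1a lie on these chromosomes, so their values at 48 hours are given with and without this library.

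In the Kennedy pathway, choline and ethanolamine are each phosphorylated, activated as a cytidine diphosphate (CDP) derivative and joined to diacylglycerol. The activation step, done by CTP:phosphocholine cytidylyl transferase for PC and CTP:phosphoethanolamine cytidylyl transferase for PE, is known as the slow step of each arm. PE is also made in mitochondria, where PS formed by headgroup exchange is decarboxylated. In the liver, PE can further be methylated to PC, a reaction for which hepatocytes are known and most other cells are not.

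Promoter windows, the bases before an annotated transcription start, were read from RefSeq for the mouse build GRCm38.p6, in which 8 of the 10 genes had 14 windows. Pcyt2 and Ptdss1 had no entry. The 250 bases before the first start are shown for Chka and Etnk1, the kinases that open the choline and the ethanolamine arm and that moved in opposite directions with sorafenib, and for Pcyt1a, whose window held the rarest of the motifs searched. Capitals mark matches on either strand to the CCAAT box, to the GC box (GGGCGG) or to the core of the sterol response element, to which SREBP factors bind (TCACNCCAC). In Pcyt1a the GC boxes overlap by a pair of bases and are written as 1 run.
Chka, chr19:3851523-3851772, plus strand: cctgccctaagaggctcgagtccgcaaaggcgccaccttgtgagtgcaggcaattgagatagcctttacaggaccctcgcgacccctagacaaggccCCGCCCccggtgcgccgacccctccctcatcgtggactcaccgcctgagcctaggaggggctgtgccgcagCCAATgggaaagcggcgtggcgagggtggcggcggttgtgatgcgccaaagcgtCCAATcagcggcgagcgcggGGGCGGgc
Etnk1, chr6:143166980-143167229, plus strand: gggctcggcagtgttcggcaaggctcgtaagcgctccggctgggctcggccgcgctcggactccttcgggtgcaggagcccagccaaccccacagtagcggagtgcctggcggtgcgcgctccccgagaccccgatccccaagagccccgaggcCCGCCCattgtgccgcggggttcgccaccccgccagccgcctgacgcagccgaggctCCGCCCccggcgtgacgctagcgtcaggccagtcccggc
Pcyt1a, chr16:32430671-32430920, plus strand: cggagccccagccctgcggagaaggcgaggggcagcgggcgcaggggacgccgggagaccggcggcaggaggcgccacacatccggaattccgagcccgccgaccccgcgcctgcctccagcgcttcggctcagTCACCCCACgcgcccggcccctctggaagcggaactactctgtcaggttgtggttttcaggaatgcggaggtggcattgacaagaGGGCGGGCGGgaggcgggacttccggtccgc
The sterol response element core stood at -116 to -108 from the first start of Pcyt1a and in no window of the other 7 genes. It was held by 1.05% of the 32851 windows of all genes, and by a window of 1.22% of the 27025 genes. The window of Chka held CCAAT boxes at -82 to -78 and at -28 to -24. A CCAAT box was found in at least 1 window of 5 of the 8 genes (Chka, Chkb, Chpt1, Pemt and Pisd) and of 37.49% of the 27025 genes (33.85% of all windows). A GC box was found in at least 1 window of 6 of the 8 (Chka, Chkb, Etnk1, Pcyt1a, Cept1 and Chpt1) and of 35.36% of the 27025 genes (32.74% of all windows). No window of the 8 genes held CACGTG (E-box, 6.02% of all windows) or TGATGNAA (core of the ATF4 site, 3.45%). A match is a description of these letters only.

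The mRNA of Pcyt2, the enzyme that activates ethanolamine for PE, was 2.24-fold lower with sorafenib at 48 hours and 2.65-fold lower at 7 days, the largest change of the 10 genes at both time points, while the choline kinase Chka rose at 7 days to 2.09 times its level with DMSO. At 48 hours 6 of the 10 genes passed edgeR's quasi-likelihood test at a Benjamini-Hochberg FDR under 0.05, where 54.6% of all tested genes did. Among them Pcyt1a and Chka rose and Pcyt2, Pemt, Etnk1 and Cept1 fell, which is 2 higher and 4 lower beside 26.9% higher and 27.7% lower among all genes. At 7 days 7 of the 10 passed, beside 56.8% of all genes. Only Chka rose, beside 28.9% higher among all genes, and Pcyt2, Pemt, Pisd, Chkb, Etnk1 and Ptdss1 fell, beside 27.9% lower. The libraries of the DMSO and sorafenib groups did not overlap for 5 of the 10 genes at 48 hours, beside 48.0% of all genes, and for 6 of the 10 at 7 days, beside 56.8%. The number of the 10 genes that changed was therefore close to the share of all tested genes in either comparison. Tested genes include many with few counts. Of the 12158 genes with at least 10 counts in every sample, 9196 passed at 48 hours and 9146 at 7 days. In those fits 7 of the 10 passed at either time point. The median log2 fold change of the 10 was -0.12 at 48 hours and -0.29 at 7 days, against -0.05 and 0.02 over all tested genes. Without replicate 2 of sorafenib for 48 hours, 8 of the 10 passed at 48 hours, with Chpt1 and Ptdss1 also lower. With scaling by total counts only, 1 of the 10 rose and 6 fell at 48 hours.

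**Figure D1:**
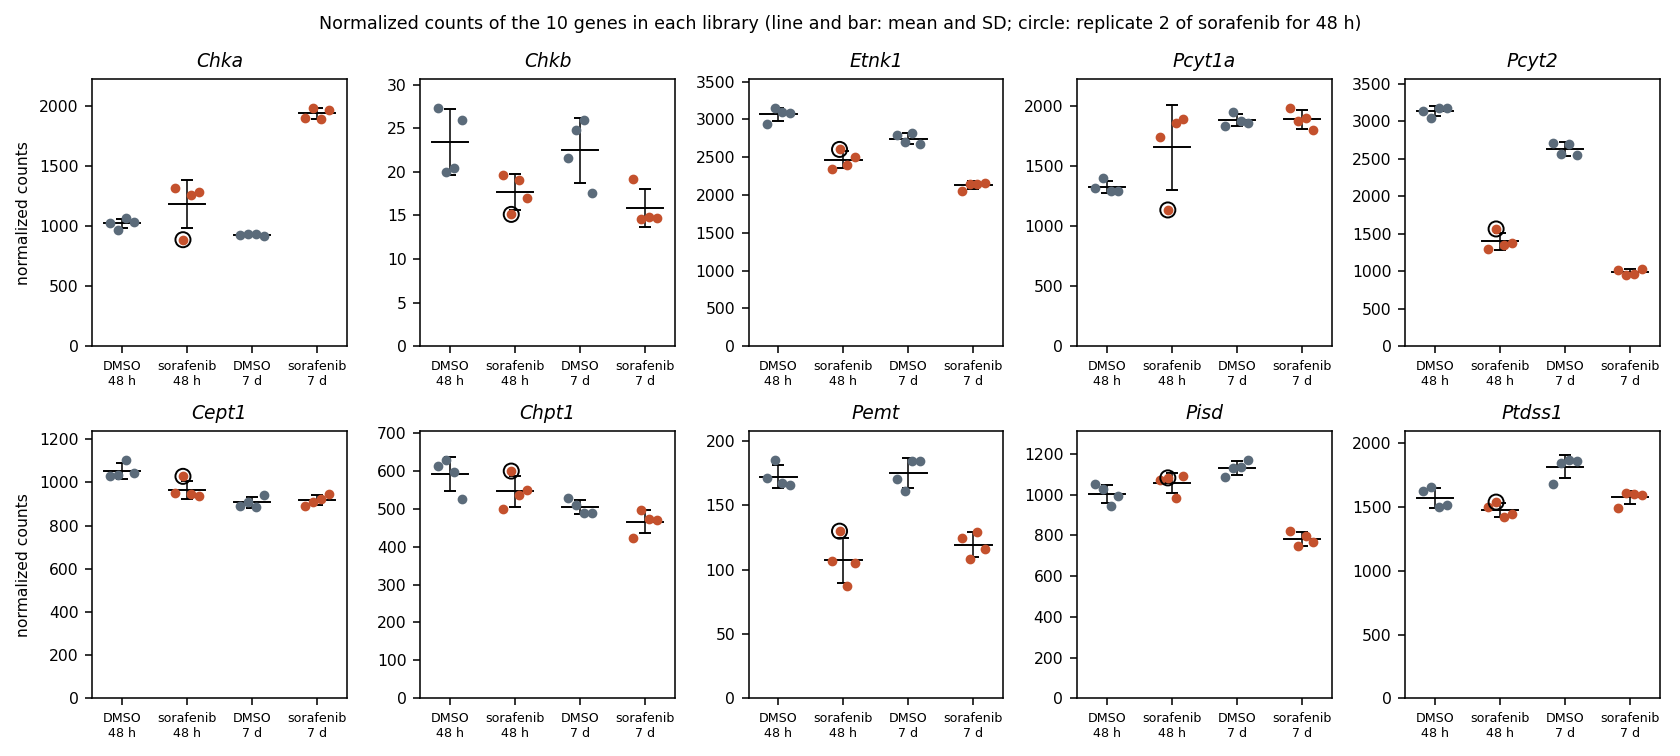
Normalized counts (vertical axes, linear from 0, with a scale of its own for each gene) of the 10 genes in the 4 libraries of each group. Points are libraries, grey for DMSO and orange for sorafenib, the line and bar are the mean and SD, and the circle marks replicate 2 of sorafenib for 48 hours. Pcyt2 with sorafenib lies below every DMSO library at both time points, Chka with sorafenib for 7 days lies above 1890 in all 4 libraries, and the circled library is the lowest of its group for Chka, Chkb and Pcyt1a.

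Chka (chr19:3901743-3944381, plus strand, build GRCm39), the choline kinase that phosphorylates choline to phosphocholine, was the only kinase of the set that rose. At 7 days its normalized counts in replicates 1 to 4 were 929, 935, 935 and 916 with DMSO and 1905, 1991, 1899 and 1973 with sorafenib. Every sorafenib library lay far above every DMSO library, and the DMSO libraries lay within a narrow band, from 916 to 935. The increase was from 929 ± 8.85 to 1942 ± 47.0 (SD, n = 4), a log2 fold change of 1.06 ± 0.077 (SE), with a Benjamini-Hochberg adjusted p of 2.82e-10 by edgeR's quasi-likelihood test. At 48 hours the values were 1029, 969, 1067 and 1034 with DMSO and 1316, 889, 1264 and 1289 with sorafenib. The exception was replicate 2, which lay below the DMSO libraries while the other 3 sorafenib libraries lay above them. With all libraries the log2 fold change was 0.22 ± 0.079 (SE; edgeR adjusted p = 0.0239), and without replicate 2 it was 0.33 (edgeR adjusted p = 2.04e-10). Over the 24 alternatives the adjusted p at 48 hours ranged from 2.04e-10 to 0.19, and it passed in 14 of them.

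Chkb (chr15:89310563-89314139, minus strand, GRCm39), the second choline kinase gene, was close to the limit of these data. It had between 10 and 30 counts in a library, and 48.45% of its exon bases lie in Gm44502, annotated on the same strand, so that the counting may have left reads of Chkb unassigned or given them to either gene. Its mean at 7 days was 22.5 ± 3.72 normalized counts in the DMSO and 15.8 ± 2.19 in the sorafenib libraries (SD, n = 4). The groups overlapped in 1 sorafenib library, replicate 1 with 19.1, which was above the lowest DMSO library with 17.6. This decrease had a log2 fold change of -0.52 ± 0.19 (SE; edgeR adjusted p = 0.0347), and it passed in 15 of 24 alternatives (adjusted p from 0.0166 to 0.111), not in that without replicate 2 of sorafenib for 48 hours (0.0514). At 48 hours the log2 fold change of -0.39 ± 0.20 (SE) did not pass (edgeR adjusted p = 0.149), although the 4 sorafenib libraries, from 15.1 to 19.6, lay below the 4 DMSO libraries, from 19.95 to 27.4. The lowest of them was replicate 2 with 15.1, the others lay between 17.04 and 19.6, and without replicate 2 the log2 fold change was -0.34 (edgeR adjusted p = 0.281).

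Etnk1 (chr6:143112947-143178033, plus strand, GRCm39), the ethanolamine kinase that opens the PE arm, fell at both time points. At 48 hours its normalized counts in replicates 1 to 4 were 2941, 3156, 3090.4 and 3077 with DMSO and 2346, 2602, 2402 and 2504 with sorafenib. At 7 days they were 2793, 2697, 2814 and 2679.6 with DMSO and 2052, 2149, 2147 and 2164 with sorafenib. Neither pair of groups overlapped. The decrease was 1.24-fold at 48 hours (log2 fold change -0.32 ± 0.037 SE, edgeR adjusted p = 3.01e-07) and 1.29-fold at 7 days (-0.37 ± 0.037 SE, edgeR adjusted p = 3.31e-08). The effects at the 2 time points differed by -0.05 ± 0.052 on the log2 scale (SE), which did not pass (edgeR adjusted p = 0.491).

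Pcyt2 (chr11:120500518-120508813, minus strand, GRCm39) encodes CTP:phosphoethanolamine cytidylyl transferase, which makes CDP-ethanolamine. At 48 hours its normalized counts in replicates 1 to 4 were 3139.7, 3041, 3181 and 3180.0 with DMSO and 1295, 1564, 1352 and 1379 with sorafenib. At 7 days the values were 2709.6, 2558, 2698 and 2544 with DMSO and 1017, 956, 967 and 1026 with sorafenib. No 2 of the 4 groups overlapped, and the order from high to low was DMSO at 48 hours, DMSO at 7 days, sorafenib at 48 hours and sorafenib at 7 days. The mean went from 3135 ± 66.0 to 1397 ± 116 at 48 hours, a log2 fold change of -1.17 ± 0.047 (SE; edgeR adjusted p = 2.64e-14). At 7 days it went from 2627 ± 88.6 to 991.5 ± 35.1 (SD, n = 4), a log2 fold change of -1.41 ± 0.048 (SE; edgeR adjusted p = 1.52e-15). Among all tested genes, 12.7% had a lower log2 fold change than Pcyt2 at 48 hours and 8.47% at 7 days. The decrease passed under all 24 alternatives at either time point, with log2 fold changes from -1.24 to -1.13 at 48 hours and from -1.42 to -1.38 at 7 days.

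Pcyt1a (chr16:32249426-32294242, plus strand, GRCm39) encodes the alpha form of CTP:phosphocholine cytidylyl transferase, which makes CDP-choline. At 48 hours its normalized counts in replicates 1 to 4 were 1318, 1402, 1292.5 and 1292 with DMSO and 1743, 1136, 1858 and 1889.8 with sorafenib. Replicate 2 with sorafenib was below all DMSO libraries, and the other 3 were above them. The increase was 1.25-fold with all libraries (log2 fold change 0.33 ± 0.099 SE, edgeR adjusted p = 0.00856) and larger without replicate 2 (log2 fold change 0.47, edgeR adjusted p = 2.17e-15). Over the 24 alternatives the adjusted p ranged from 2.17e-15 to 0.104, and it passed in 21 of them. At 7 days the groups overlapped, at 1883 ± 49.3 normalized counts in the DMSO and 1891 ± 78.1 in the sorafenib libraries (SD, n = 4), and the log2 fold change was 0.00 ± 0.096 (SE; edgeR adjusted p = 0.981).

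Cept1 and Chpt1, the transferases among the 10 genes that join an activated headgroup to diacylglycerol, had log2 fold changes between -0.13 and 0.02. Cept1 (chr3:106409424-106455737, minus strand, GRCm39), which accepts both CDP-choline and CDP-ethanolamine, fell from 1053 ± 35.3 to 965 ± 42.4 normalized counts at 48 hours (SD, n = 4). This was a log2 fold change of -0.13 ± 0.041 (SE; edgeR adjusted p = 0.0129), and it passed in 23 of 24 alternatives (adjusted p from 9.21e-04 to 0.101). The DMSO libraries, from 1030.3 to 1106, lay just above the sorafenib libraries, from 936 to 1028. At 7 days Cept1 had 908 ± 24.4 with DMSO and 918 ± 24.3 with sorafenib, and the groups overlapped (log2 fold change 0.02 ± 0.041 SE, edgeR adjusted p = 0.76). Chpt1 (chr10:88288348-88340029, minus strand, GRCm39), the choline-specific transferase, had 591 ± 45.1 and 546 ± 41.1 normalized counts with DMSO and sorafenib at 48 hours. At 7 days it had 504 ± 18.8 and 465 ± 30.4. Its log2 fold changes of -0.12 ± 0.065 and -0.11 ± 0.065 (SE) did not pass (edgeR adjusted p = 0.144 and 0.162), and the groups overlapped at both time points. At 48 hours it passed in 4 of 24 alternatives, among them that without replicate 2 of sorafenib for 48 hours (log2 fold change -0.16, edgeR adjusted p = 0.029, with a range over the alternatives from 0.0112 to 0.382). Selenoi, the ethanolamine-specific transferase, is not one of the 10 and was named after its values had been seen. At 7 days it fell from 3422 ± 84.2 to 2804 ± 28.4 normalized counts (SD, n = 4) without overlap, a log2 fold change of -0.29 (edgeR adjusted p = 1.75e-06). At 48 hours its log2 fold change of 0.10 (edgeR adjusted p = 0.0343) passed in 13 of 24 alternatives (adjusted p from 0.00229 to 0.598), not in that without replicate 2 of sorafenib (0.0502), and the groups overlapped.

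Pemt (chr11:59861440-59950424, minus strand, GRCm39), the methyltransferase that turns PE into PC, was counted at a low level and fell at both time points. At 48 hours its normalized counts in replicates 1 to 4 were 171, 186, 167 and 166 with DMSO and 107, 130.04, 87.6 and 106 with sorafenib. At 7 days they were 171, 161, 185 and 185 with DMSO and 125, 108, 129 and 116 with sorafenib. All sorafenib libraries were below all DMSO libraries of the same time point. The decrease was 1.61-fold at 48 hours (log2 fold change -0.71 ± 0.10 SE, edgeR adjusted p = 5.61e-06) and 1.47-fold at 7 days (-0.55 ± 0.095 SE, edgeR adjusted p = 4.41e-05).

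Of the mitochondrial route to PE, Pisd fell at 7 days and did not pass the test at 48 hours. Pisd (chr5:32893210-32943185, minus strand, GRCm39) encodes PS decarboxylase, an enzyme of the inner mitochondrial membrane. At 7 days its normalized counts in replicates 1 to 4 were 1087, 1132, 1137 and 1172 with DMSO and 821, 748, 795 and 766 with sorafenib. The groups were well apart, with a mean of 1132 ± 35.2 against 783 ± 32.2 (SD, n = 4), a 1.45-fold decrease (log2 fold change -0.53 ± 0.046 SE, edgeR adjusted p = 4.2e-09). At 48 hours the values were 1051, 1027, 945 and 992 with DMSO and 1072, 1083, 982 and 1094 with sorafenib, and the groups overlapped (log2 fold change 0.07 ± 0.047 SE, edgeR adjusted p = 0.201). Ptdss1 (chr13:67080833-67164574, plus strand, GRCm39), which makes PS from PC by headgroup exchange, had 1572 ± 79.1 normalized counts in the DMSO libraries and 1476 ± 53.3 in the sorafenib libraries at 48 hours. The groups overlapped there, and the log2 fold change of -0.09 ± 0.045 (SE; edgeR adjusted p = 0.0936) passed in 7 of 24 alternatives (adjusted p from 0.00648 to 0.402; 0.0139 without replicate 2 of sorafenib for 48 hours). At 7 days Ptdss1 fell from 1815 ± 88.4 to 1574 ± 53.9 without overlap (log2 fold change -0.21 ± 0.044 SE, edgeR adjusted p = 5.19e-04).

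**Figure D2:**
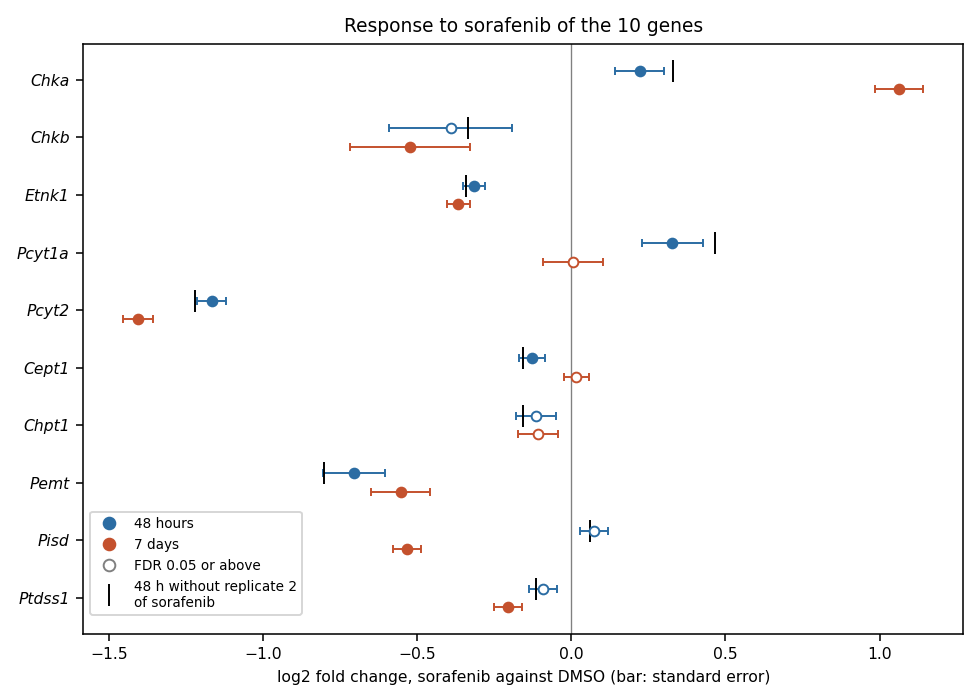
Log2 fold change of sorafenib against DMSO (horizontal axis, bars are standard errors) for the 10 genes at 48 hours (blue) and 7 days (orange). Filled points passed edgeR's quasi-likelihood test at an FDR under 0.05, and the black ticks give the value at 48 hours without replicate 2 of sorafenib. Pcyt2 lies farthest to the left at both time points (-1.17 and -1.41), Chka farthest to the right at 7 days (1.06), and leaving out the replicate moves Chka and Pcyt1a to 0.33 and 0.47.

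The effect of sorafenib differed between 48 hours and 7 days for 3 of the 10 genes, where the test of that difference passed for 36.8% of all tested genes (15.5% with a higher and 21.3% with a lower effect at 7 days). For Chka the effect at 7 days exceeded that at 48 hours by 0.84 ± 0.11 on the log2 scale (SE; edgeR adjusted p = 4.27e-06), and by 0.73 without replicate 2 of sorafenib for 48 hours. For Pisd the difference was -0.61 ± 0.066 (SE; edgeR adjusted p = 3.34e-07). Pcyt2 had a difference of -0.24 ± 0.067 (SE; edgeR adjusted p = 0.00749), which did not pass with scaling by total counts only (-0.15, adjusted p = 0.151, with a range over its 23 alternatives from 0.00118 to 0.151). That scaling also turned the balance over all genes. The share of called genes with a higher effect at 7 days went from 42.1% to 55.6%, with a median over all tested genes of 0.12 in place of 0.02. Under it Cept1 had a difference that passed, so that 2 of the 10 genes had a higher and 1 a lower effect at 7 days. In the main fit the difference of Cept1 was 0.14 ± 0.058 (SE) and did not pass (edgeR adjusted p = 0.0603). It passed in 11 of 23 alternatives, DESeq2 among them (adjusted p = 0.0225), with a range from 0.00402 to 0.122. For Pcyt1a the difference of -0.32 ± 0.14 (SE) did not pass with all libraries (edgeR adjusted p = 0.0771), whereas without replicate 2 it was -0.46 (edgeR adjusted p = 5.82e-11), the only one of 23 alternatives in which it passed (adjusted p up to 0.236). Without that library 5 of the 10 genes differed between the time points, with Cept1 and Pcyt1a added.

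The level of the genes also depended on time with DMSO alone. Between DMSO for 48 hours and DMSO for 7 days, 7 of the 10 passed, beside 49.4% of all tested genes, with 3 higher and 4 lower at 7 days beside 23.9% and 25.5%. Pcyt1a moved most, from 1326 ± 52.0 to 1883 ± 49.3 normalized counts (SD, n = 4), a log2 fold change of 0.51 ± 0.098 (SE; edgeR adjusted p = 2.09e-04). The DMSO libraries at 7 days, from 1837 to 1952, were thus as high as those with sorafenib at 7 days, from 1799 to 1989. Ptdss1 rose by 0.21 and Pisd by 0.17 on the log2 scale (edgeR adjusted p = 5.62e-04 and 0.00332), the latter not with total counts only (adjusted p = 0.0598, with a range over its 22 alternatives from 2.43e-04 to 0.0598). Pcyt2 fell by 0.26, Chpt1 by 0.23, Cept1 by 0.21 and Etnk1 by 0.16 (edgeR adjusted p = 8.12e-05, 0.00492, 1.66e-04 and 9.67e-04). The comparisons with sorafenib share these DMSO libraries. Chka had a log2 difference of -0.14 between the DMSO groups that did not pass (edgeR adjusted p = 0.156), although the groups did not overlap. This difference passed in 2 of its 22 alternatives (adjusted p up to 0.275). They were that without replicate 2 of sorafenib for 48 hours (9.12e-04) and that with total counts only (0.0309).

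Ratios of the counts of a pair of genes in the same library do not depend on how libraries are scaled, and they set 1 arm or paralog against the other. The ratio of Pcyt1a to Pcyt2, the alpha form of the choline enzyme against the ethanolamine enzyme, went from 0.423 with DMSO to 1.16 with sorafenib at 48 hours, and from 0.717 to 1.91 at 7 days, as geometric means of count ratios not corrected for gene length. On the log2 scale this was an increase of 1.46 at 48 hours, or 1.69 without replicate 2 of sorafenib, and of 1.41 at 7 days. The beta form, Pcyt1b, made up 46.2% of the summed normalized counts of Pcyt1a and Pcyt1b with DMSO at 48 hours, so the ratio was also taken with both forms summed, an alternative chosen after the data had been seen. The summed ratio to Pcyt2 went from 0.787 to 1.31 at 48 hours, an increase of 0.73 on the log2 scale (0.96 without replicate 2 of sorafenib), and from 0.933 to 2.04 at 7 days, an increase of 1.13, without overlap at either time point (exact permutation p = 0.0286). The ratio of Pisd to Pcyt2, the mitochondrial against the Kennedy route to PE, rose by 1.24 and 0.87. The ratio of Chka to Chkb rose by 0.59 and 1.56, with the few counts of Chkb as its denominator. For these 3 ratios no sorafenib library overlapped a DMSO library at either time point, and each had an exact two-sided permutation p of 0.0286, the smallest that 4 against 4 libraries allow, or 0.0381 after Benjamini-Hochberg adjustment over the 8 tests. The ratios of Pcyt1a and of Pisd share Pcyt2, which itself fell without overlap, so they are not separate from each other or from that result. At 7 days the ratio of Pisd to Pcyt2 rose although Pisd itself fell 1.45-fold. At 48 hours the exact permutation p was 0.0571 for Pcyt1a to Pcyt2 when any 1 of the DMSO libraries was left out, and for Chka to Chkb without replicate 4 of sorafenib. The ratio of Cept1 to Chpt1, the dual-specificity against the choline-specific transferase, differed by -0.01 at 48 hours (exact permutation p = 0.914, adjusted 0.914) and by 0.13 at 7 days (exact permutation p = 0.0571, adjusted 0.0653), and its groups overlapped.

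**Figure D3:**
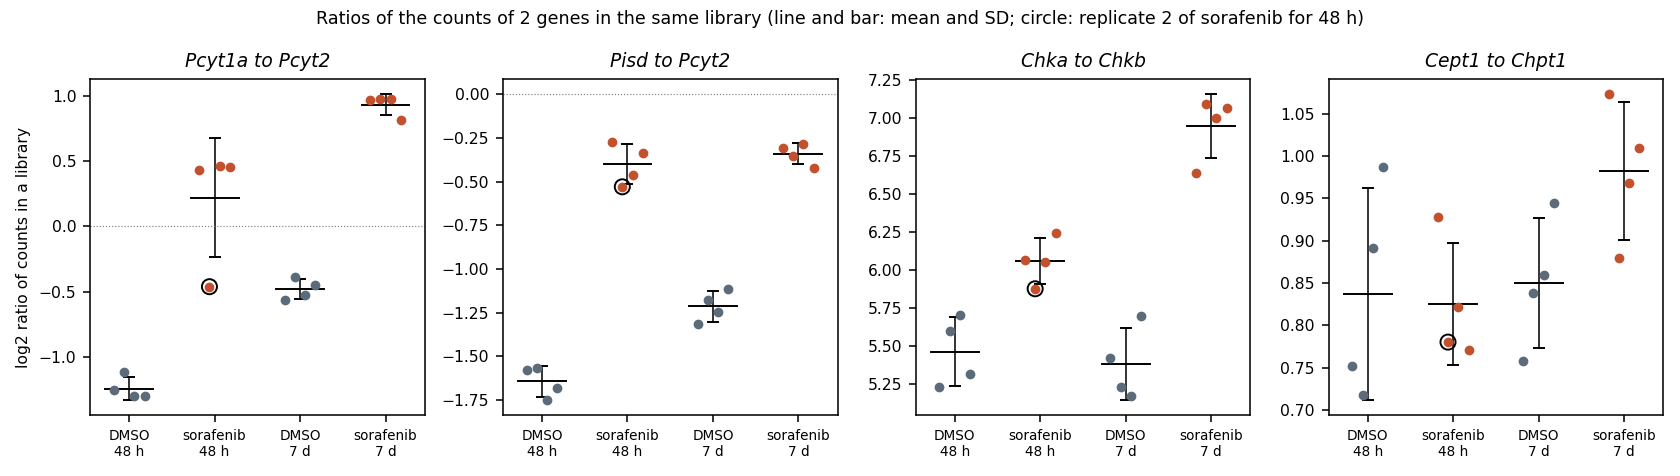
Log2 ratio of the counts of a pair of genes in the same library (vertical axes, a scale of its own in each panel), for the 4 libraries of each group. Points, lines, bars and the circle are as in the plot of normalized counts, and the dotted line marks equal counts. The ratio of Pcyt1a to Pcyt2 is below 0 in all DMSO libraries and above 0 in all sorafenib libraries except the circled replicate 2 at 48 hours (-0.46), and that of Cept1 to Chpt1 overlaps between groups.

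Per kilobase of merged exon, the order of the 10 genes in DMSO at 48 hours was Pcyt2, Ptdss1, Etnk1, Pcyt1a, Pisd, Cept1, Chka, Chpt1, Pemt and Chkb. Pcyt2 led with 653 ± 13.7 normalized counts per kilobase (SD, n = 4), followed by Ptdss1 with 222 ± 11.2, and Chkb was last with 7.31 ± 1.18. No neighbours in this order overlapped over the 4 libraries. With sorafenib for 7 days Pcyt2 came after Ptdss1 and Pcyt1a, with 206 ± 7.30 normalized counts per kilobase against 222 ± 7.61 for Ptdss1 and 217 ± 8.98 for Pcyt1a. Neighbours among these 3 overlapped, whereas Chka, next in the order with 154 ± 3.72, did not overlap Pcyt2 or Etnk1. With the length of the longest transcript in place of merged exons, Chka was first in that group with 418 ± 10.1 and Pcyt2 second with 398 ± 14.1, and these 2 overlapped, so the order depends on the length used, and the transcripts in use in these cells are not known.

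The 3 genes of the set with the widest range of group means, Pcyt2, Chka and Pemt, were compared with 10646 genes of at least 100 normalized counts for the likeness of their levels over the 16 libraries, as the root mean square difference of centred log2 values. Nearest to Pcyt2 were Dgkz (0.0674), Dna2 (0.0678) and Gabarapl1 (0.0803). Those nearest to Chka were Slc29a1 (0.103), Zbtb21 (0.11) and Ikbkg (0.111), and nearest to Pemt were Oaz1 (0.0989), D8Ertd738e (0.11) and Znhit1 (0.116). Slc29a1, Zbtb21 and Ikbkg lie on chromosomes 17, 16 and X, which like that of Chka were among those counted low in replicate 2 (sorafenib, 48 hours). Without this library, an alternative chosen after the data had been seen, none of these 3 remained, and nearest to Chka were Eno3 (0.0833), Serpinb6a (0.087) and Hip1r (0.0997), on chromosomes 11, 13 and 5. The 3 genes nearest to Pcyt2 and 2 of the 3 nearest to Pemt remained. For Dgkz, the zeta form of diacylglycerol kinase, the log2 fold changes with sorafenib were -1.08 at 48 hours and -1.43 at 7 days.

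Of 21 other genes of the same pathways and of choline supply, 18 were tested. Slc5a7, Chdh and Etnppl were not, with at most 2 counts in any library. At 48 hours 13 of the 18 passed, beside 54.6% of all tested genes, 5 higher and 8 lower beside 26.9% and 27.7%. At 7 days 13 passed, beside 56.8%, 4 higher and 9 lower beside 28.9% and 27.9%. The median log2 fold change of the 18 was -0.27 and -0.37, against -0.05 and 0.02 over all tested genes. Pcyt1b, the beta form of the choline cytidylyl transferase, fell from 1140.2 to 201 normalized counts at 48 hours (log2 fold change -2.48 ± 0.11 SE, edgeR adjusted p = 1.55e-13), and, as a gene on chromosome X, had a log2 fold change of -2.34 without replicate 2 of sorafenib. At 7 days it fell from 568 to 129 (-2.13 ± 0.12 SE, edgeR adjusted p = 5.05e-12). Lpin1, a phosphatidate phosphatase that gives the diacylglycerol for both arms, fell from 926 to 321 at 48 hours and from 584 to 117 at 7 days (log2 fold changes -1.53 ± 0.094 and -2.31 ± 0.11 SE, edgeR adjusted p = 2.19e-11 and 2.58e-13). Its paralog Lpin3 was lower by -2.84 and -4.04 on the log2 scale (edgeR adjusted p = 6.28e-07 and 4.59e-07), at 31.2 and 17.2 normalized counts with DMSO and 4.30 and 1.02 with sorafenib, the last of these a mean under 3 counts. Slc44a3, a choline transporter-like gene, had group means of 0.510 with DMSO and 3.93 with sorafenib at 48 hours, with at most 6 counts in a library and overlapping groups. Its higher level with sorafenib (log2 fold change 2.79, edgeR adjusted p = 0.0355) passed in 16 of 23 alternatives (log2 fold change from 2.34 to 5.03, adjusted p from 0.00531 to 0.122), not with the replicate block (0.0973) or with only the 8 libraries of the time point (0.0649). The ethanolamine kinase Etnk2 had means of 5.62 with DMSO and 1.98 with sorafenib at 48 hours, and of 1.20 and 5.05 at 7 days. It was lower with sorafenib at 48 hours (log2 fold change -1.36, edgeR adjusted p = 0.031), which passed in 16 of 23 alternatives (adjusted p from 0.0226 to 0.147) and not in that without replicate 2 of sorafenib (-1.04, 0.147), and higher at 7 days (2.03, edgeR adjusted p = 0.00332).

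**Figure D4:**
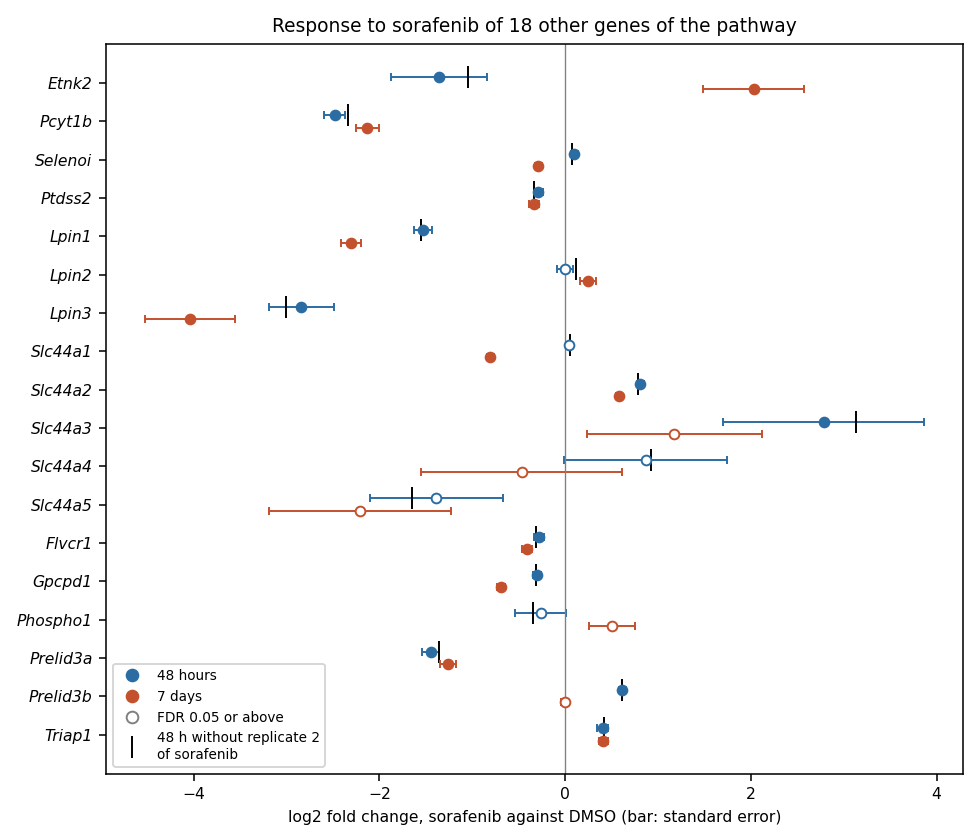
Log2 fold change of sorafenib against DMSO (horizontal axis, bars are standard errors) for 18 other genes of PC and PE synthesis, choline supply and PS transport, at 48 hours (blue) and 7 days (orange). Filled points passed edgeR's quasi-likelihood test at an FDR under 0.05, and the black ticks give the value at 48 hours without replicate 2 of sorafenib. Pcyt1b, Lpin1 and Lpin3 lie below -1.5 at both time points, and the widest bars belong to genes with few counts, such as Slc44a3.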

How the data were processed

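RNA-seq of 16 libraries was analysed, 4 in each group of the labels. Per the labels, the libraries were stranded mRNA libraries. The submitters' processing notes name STAR 2.7.1a, featureCounts 2.0.6 and DESeq2 1.40.2 with the build GRCm39. The authors deposited the reads counted on each gene as raw counts, without normalization, and the annotation and strand setting of the counting are not given in the sources used here. Genes under 10 counts in total (20396) were removed, as in the study's methods. The test was edgeR's quasi-likelihood test (edgeR 4.0.16 in R 4.3.3, TMM normalization) in 1 model of all 16 libraries with a coefficient for each group, and p-values were adjusted by Benjamini-Hochberg over all tested genes, with calls at an FDR under 0.05. Standard errors (SE) are the log2 fold change over the root of its F statistic. The steps were tested on simulated data. Normalized counts are counts over the TMM-scaled library size, relative to its geometric mean over libraries. Log2 levels for likeness used a pseudocount of 0.5. Gene positions and exon lengths came from GENCODE on GRCm39, and promoters from RefSeq on GRCm38.p6. Coordinates of these builds were not mixed.

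The 10 genes and the other gene lists were chosen with earlier results of these data known. All 10 genes were named. Of the other genes of the pathway, the 4 with the largest absolute log2 fold change among those called at each time point were named, and any that was absent, and for the 3 of the 10 genes with the widest range of group means, the 3 most similar genes. The alternatives were DESeq2 (1.42.0), its size factors, total counts or TMM without mitochondrially encoded genes, other filters, a fit to the 8 libraries of 1 time point, a block for the replicate number, and each library left out in turn. A ratio with Pcyt1a and Pcyt1b summed, and the likeness without replicate 2 of sorafenib for 48 hours, were added after the data had been seen. Differences between 2 replicates of a group exceeded counting error, with a chi-square per gene from 1.58 to 71.5, so none was counted as a duplicate. Replicates were not equally alike. Replicate 4 of DMSO for 7 days differed from its group by 53.1 to 71.5, while the others there differed by 1.94 to 3.20. With DMSO for 48 hours, replicates 1 and 4 (5.09) and replicates 2 and 3 (5.95) were alike, and values between these pairs were 18.7 to 42.7. Replicate 2 of sorafenib for 48 hours differed from its group by 32.6 to 38.0.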

Additional observations from a re-analysis of the deposited data

Results flagged for a closer look

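In 7 of the 40 groups of 4 libraries formed by the 10 genes, 1 library stood apart from the other 3 by Dixon's test, where chance gives about 1 in 20. With sorafenib for 48 hours these were replicate 2 of Chka, lowest with 889 normalized counts, and replicate 2 of Cept1, highest with 1028. With sorafenib for 7 days replicate 1 was highest for Chkb with 19.1, lowest for Etnk1 with 2052 and lowest for Ptdss1 with 1494. With DMSO, replicate 3 at 48 hours was highest for Cept1 with 1106, and replicate 1 at 7 days was lowest for Ptdss1 with 1683. Replicate 2 of sorafenib for 48 hours had lowered counts on chromosomes 15 to 19 and X, with Chka on 19 (0.604 times those expected from lower-numbered chromosomes). Cept1 lies outside them, as do Etnk1, Pcyt2, Pemt, Chpt1 and Ptdss1, which were also highest of their group in this library (2602, 1564, 130.04, 599 and 1538). Pisd lies outside them too and was not highest there. Without this library the log2 fold change at 48 hours was -0.34 for Etnk1, -1.22 for Pcyt2, -0.80 for Pemt and -0.16 for Cept1. With all libraries it was -0.32, -1.17, -0.71 and -0.13. The origin of the lowered counts was not tested.

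The response to sorafenib differed between the time points for 3 genes by the test of that difference, with edgeR's quasi-likelihood test. The log2 fold change at 7 days minus that at 48 hours was 0.84 for Chka, -0.24 for Pcyt2 and -0.61 for Pisd.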

How the results depend on the processing

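The log2 fold changes of the 10 genes in 4 comparisons (40 results) gave 930 values over 24 alternatives. Of these, 862 kept their direction and their side of the threshold, 25 lost the call, 25 gained one and 18 changed sign, all 18 for differences near 0 that were not called. The count of the 10 genes called ranged from 4 to 8 at 48 hours, 6 to 7 at 7 days, 3 to 5 for the difference between time points (5 without replicate 2 of sorafenib for 48 hours) and 7 to 8 between the DMSO groups. Changes of sign were seen for the difference between time points of Etnk1 (0.042 with total counts only, 0.015 with at least 10 counts in every sample) and of Chpt1 (-0.0098 with no filter beyond 1 count, and -0.027 to 0.087 with 1 library left out). They were also seen for Pcyt1a at 7 days (-0.002 with only the 8 libraries of the time point, and -0.0196 to 0.028 with 1 library left out), for Pemt between the DMSO groups (-0.036 with total counts only, and -0.0048 to 0.063 with 1 library left out) and for Chkb between the DMSO groups (-0.13 to 0.0503 with 1 library left out). The cause was not tested.

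With 1 library left out, the log2 ratio of Pcyt1a to Pcyt2 at 48 hours differed by 1.38 to 1.69, that of Chka to Chkb by 0.52 to 0.68 and that of Cept1 to Chpt1 by -0.052 to 0.038. The exact p of the first rose to 0.0571 without any 1 of the DMSO libraries, and that of the second without replicate 4 of sorafenib. With Pcyt1a and Pcyt1b summed, chosen after the data had been seen, the ratio to Pcyt2 differed by 0.73 at 48 hours and 1.13 at 7 days, and the exact p stayed at 0.0286. With libraries of the same replicate number paired, the differences in ratio remained 1.46 and 1.41 for Pcyt1a to Pcyt2, 0.59 and 1.56 for Chka to Chkb and 1.24 and 0.87 for Pisd to Pcyt2 at 48 hours and 7 days, with an exact permutation p of 0.125, the smallest that 4 pairs allow, so this pairing cannot pass. With the replicate number as a block in edgeR, 6, 6 and 3 of the 10 genes were called at 48 hours, at 7 days and for the difference, and 10644, 11027 and 6987 of all genes, against 11158, 11613 and 7515 without it. The call lost at 7 days was that of Chkb (adjusted p = 0.0534). Deviations of libraries that share a number had correlations from -0.0472 to 0.008 at 48 hours (mean -0.009) and from -0.0068 to 0.1222 at 7 days (mean 0.0676). For libraries with different numbers they were from -0.0402 to 0.0711 (mean 0.003) and from -0.1574 to 0.1102 (mean -0.0219). The comparison of the DMSO groups could not be fitted with the block, since numbers were nested in a time point. Depth limits Chkb, with at most 30 counts in a library, and the genes with under 10 normalized counts.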

Other observations

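Pcyt1a and Pcyt1b encode the alpha and beta forms of the same enzyme, and their counts were added after their values had been seen. The summed normalized counts, not corrected for gene length, were 2466 ± 41.3 with DMSO and 1858 ± 400.1 with sorafenib at 48 hours (SD, n = 4), where replicate 2 was lowest with 1266 and both genes lie on the chromosomes with lowered counts. At 7 days they were 2451 ± 61.7 and 2019.7 ± 73.1, and every sorafenib library was below every DMSO library. The share of Pcyt1b in this sum was 46.2% ± 2.52 with DMSO and 10.8% ± 0.555 with sorafenib at 48 hours, and 23.1% ± 2.51 and 6.41% ± 0.481 at 7 days. Replicate 2 of sorafenib for 48 hours did not stand apart in this share, which lay between 10.3% and 11.5% in that group.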
